A study of Mus musculus with 24 samples.

Results

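The genes described here are 6 that are commonly used to mark the atria of the heart: Myl7, Myl4, Sln, Bmp10, Kcnj3 and Mybphl. They were taken by symbol from the platform annotation of the expression table, each matched 1 identifier, and they are 6 of the 24011 named genes that were tested. The samples were hearts of 8-week-old C57BL/6J mice, profiled on Affymetrix arrays in 4 groups of 6 arrays each. A stroke of the brain was induced by middle cerebral artery occlusion (MCAO), with a sham operation as the control, and hearts were studied at 24 h or at 72 h after either operation. The labels name no transgene or drug in any group, do not say which chambers were taken with each heart, and do not state whether arrays came from separate animals, so p-values cover the spread among these arrays only. For the arrays at 72 h one free-text label gives 24 h instead; the time was taken from their titles and time labels. Values are on the deposited log2 scale, where a difference of 1 is a doubling, and levels are compared only within a gene.

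The adult atria and ventricles build the same contractile machine from partly different parts. Atrial muscle carries its own regulatory and essential myosin light chains, its own inhibitor of the calcium pump and the potassium channel through which the vagus nerve slows the heart, while ventricular muscle uses other forms or much less of them. Because these differences between chambers are large, the genes serve as markers of atrial muscle in a heart sample. In whole tissue, fewer cells of a type and less RNA per cell cannot be told apart.

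The 6 genes lie on 5 chromosomes, with positions from RefSeq on the assembly GRCm38.p6, since the build behind the arrays is not given in the sources used here. Myl7 (Entrez Gene 17898, chr11:5896637-5898782) and Myl4 (17896, chr11:104546017-104587215) share chromosome 11, far apart. Mybphl (68753) is at chr3:108364911-108380057, Sln (66402) at chr9:53850251-53853849, Kcnj3 (16519) at chr2:55411798-55598145 and Bmp10 (12154) at chr6:87428994-87434512. RefSeq promoter windows, from 250 bases before to 50 after a start site, matched 5 of the 6 genes, all but Sln. The windows of 3 genes that varied together over the arrays, and of Bmp10, whose correlations with them did not pass, are shown 5′ to 3′ on the strand of the gene, with matches to 3 motifs in capitals. The motifs, searched on both strands, were AGGTGT for T-box factors, AGATAA for GATA factors and AGGTCA for nuclear receptors.
Myl7, chr11:5898733-5899032, minus strand: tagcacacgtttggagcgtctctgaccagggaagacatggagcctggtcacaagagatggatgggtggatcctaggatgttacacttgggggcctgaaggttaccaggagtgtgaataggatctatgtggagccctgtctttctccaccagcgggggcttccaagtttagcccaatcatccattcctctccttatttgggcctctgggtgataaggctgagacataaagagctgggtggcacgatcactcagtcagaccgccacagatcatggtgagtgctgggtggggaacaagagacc
Myl4, chr11:104550413-104550712, plus strand: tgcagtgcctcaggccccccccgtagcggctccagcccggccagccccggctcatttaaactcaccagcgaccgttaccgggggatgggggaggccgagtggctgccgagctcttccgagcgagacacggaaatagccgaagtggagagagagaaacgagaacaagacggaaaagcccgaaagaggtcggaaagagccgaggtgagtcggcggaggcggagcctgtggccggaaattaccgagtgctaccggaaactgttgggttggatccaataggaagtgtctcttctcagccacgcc
Mybphl, chr3:108364661-108364960, plus strand: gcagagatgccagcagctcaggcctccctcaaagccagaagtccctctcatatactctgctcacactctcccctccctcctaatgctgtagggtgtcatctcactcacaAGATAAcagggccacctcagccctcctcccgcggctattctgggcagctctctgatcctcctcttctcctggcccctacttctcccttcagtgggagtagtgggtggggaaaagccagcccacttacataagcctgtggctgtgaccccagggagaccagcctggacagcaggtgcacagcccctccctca
Bmp10, chr6:87428744-87429043, plus strand: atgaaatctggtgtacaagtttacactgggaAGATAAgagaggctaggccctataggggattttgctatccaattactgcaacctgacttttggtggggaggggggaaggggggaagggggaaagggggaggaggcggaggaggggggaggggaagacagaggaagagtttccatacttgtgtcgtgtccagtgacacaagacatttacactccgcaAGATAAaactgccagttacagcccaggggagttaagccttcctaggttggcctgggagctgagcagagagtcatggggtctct

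The windows of Myl4 and Kcnj3 each lie inside the annotated gene, downstream of its outer start. The windows of Myl7 and Myl4 held 0 matches to the 3 motifs. The window of Mybphl held 1 GATA match, 141 bases before the start site, and that of Bmp10 held 2, at 219 and 33 bases before it. The window of Kcnj3, which is not shown, held 1 T-box match on the opposite strand. Among 32851 promoter windows of the same length, 13.7% held the T-box motif, 11.2% the GATA motif and 16.3% the nuclear receptor motif. These letters describe the windows only and were not tested for binding. Of the 4 genes that varied together, Sln had no window. The other 3 shared no match, since the windows of Myl7 and Myl4 held 0.

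The hearts differed from one another in these genes far more than in most genes, and most of that difference lay inside the groups. From the lowest to the highest array, Sln covered a 191-fold range, Myl7 a 183-fold range, Mybphl 30.7-fold, Bmp10 21.2-fold, Myl4 8.92-fold and Kcnj3 4.37-fold. Ranked by the SD within groups among the 24011 genes, Sln stood at rank 1 (SD 2.04), Myl7 at rank 4 (1.84), Mybphl at rank 17 (1.01), Myl4 at rank 28 (0.918), Bmp10 at rank 31 (0.894) and Kcnj3 at rank 1041 (0.374), where the median over all genes was 0.164. The 4 groups accounted for 22.0% of the variance of Sln and 18.8% of that of Myl7, close to the median of 21.0% over all genes, and for 6.08% to 10.9% of that of the other 4. Among counterparts of these genes in the heart, the ventricular light chain genes Myl2 and Myl3 spanned 3.40-fold and 1.77-fold, the calcium pump inhibitor gene Pln 1.20-fold, and the natriuretic peptide genes Nppa and Nppb 4.76-fold and 3.62-fold. Their medians were 12.45 for Myl2, 11.96 for Myl3, 13.13 for Pln, 11.98 for Nppa and 10.32 for Nppb. The highest value of the scale is 13.49, which leaves genes near its top little room to vary. Its lowest value is 2.78, and the lowest arrays were at 3.13 for Myl7, 3.49 for Sln, 3.29 for Bmp10 and 3.24 for Mybphl. Whether these genes were detected in their low arrays was not tested, so the low ends of their fold ranges are uncertain.

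**Figure D1:**
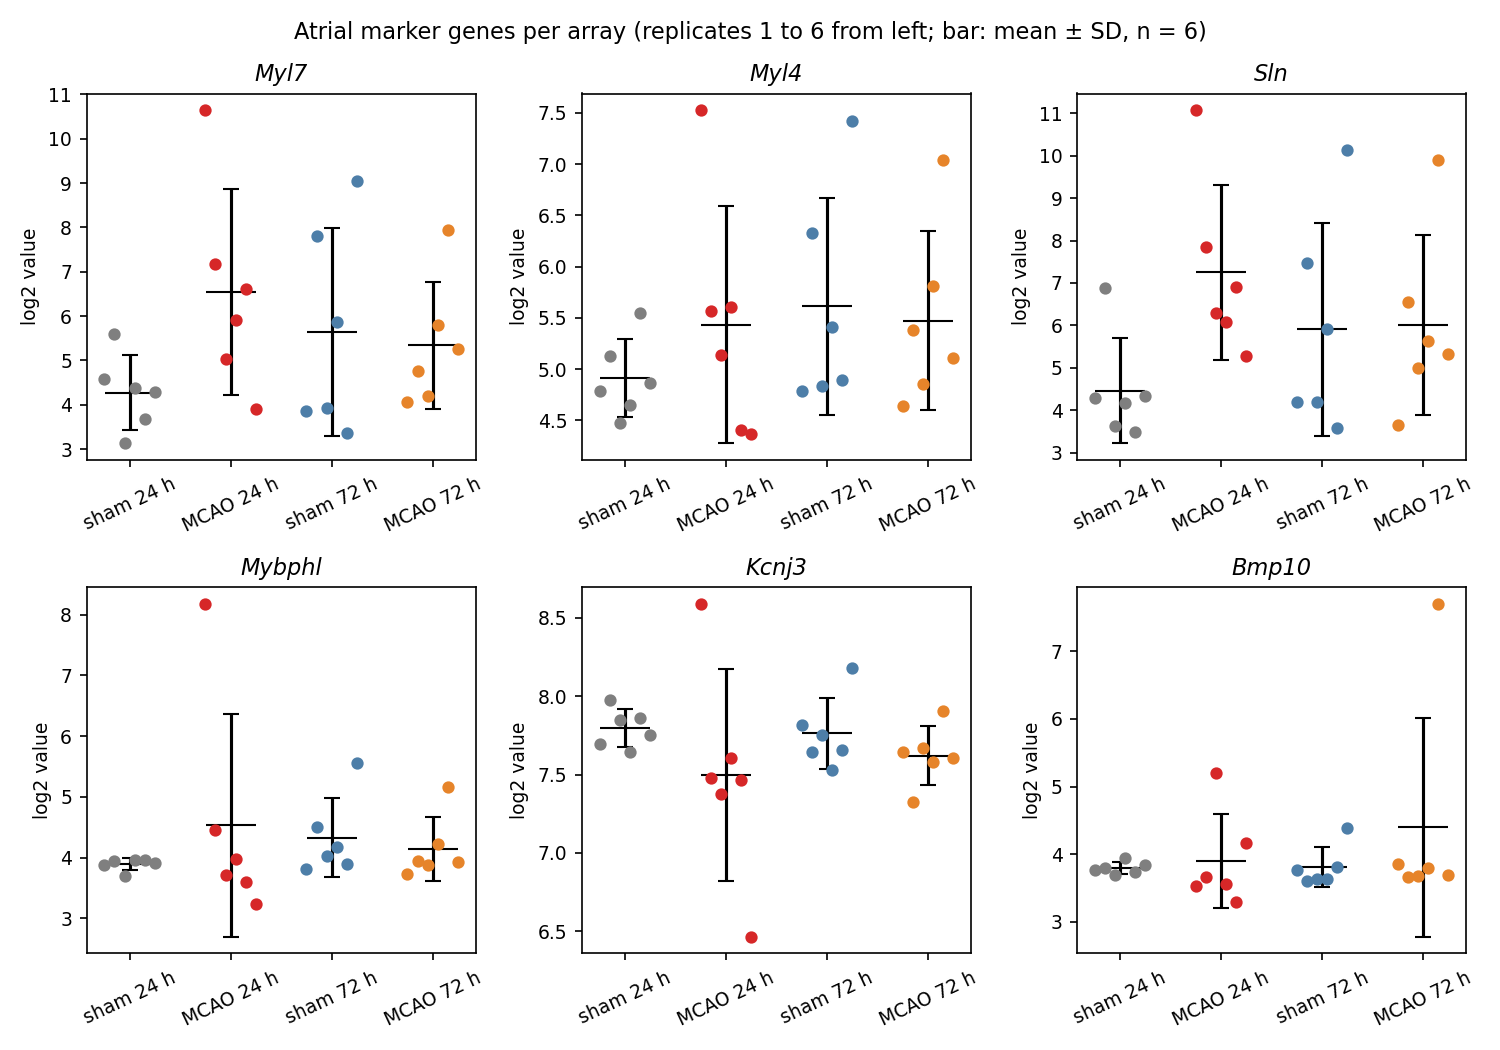
Log2 value of each atrial marker gene (vertical axis of each panel) in the 24 arrays, by group, with replicates 1 to 6 from left to right and bars for mean ± SD (n = 6). MCAO 24 h replicate 1 is the highest array for 5 genes, and MCAO 72 h replicate 5 for Bmp10; every pair of groups overlaps.

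Myl7 encodes the atrial regulatory light chain of myosin. Its log2 values in the sham hearts at 24 h were 4.58, 5.60, 3.13, 4.38, 3.68 and 4.29 in replicates 1 to 6, with a mean of 4.28 ± 0.84 (SD, n = 6). In the MCAO hearts at 24 h they were 10.65, 7.17, 5.04, 5.91, 6.60 and 3.91, with a mean of 6.55 ± 2.32 (SD, n = 6). The 2 groups overlapped, although 4 of the 6 MCAO arrays lay above the highest sham array and 5 of 6 above the sham mean. The difference was 2.27 (SE 0.99), or 4.83-fold, with an unadjusted p = 0.0307 and an adjusted p = 0.103 by limma, and so did not pass the threshold of 0.05. MCAO replicate 1 set much of it: without that array the difference was 1.45 (adjusted p = 0.246). Without MCAO replicate 6, the lowest of the group, it was 2.80 (adjusted p = 0.0424).

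At 72 h Myl7 was uneven within both groups, with the larger SD among the sham hearts. The sham values were 3.87, 7.80, 3.92, 5.87, 3.37 and 9.04 (mean 5.65 ± 2.35, SD, n = 6), and the MCAO values were 4.07, 4.77, 4.20, 5.79, 7.94 and 5.26 (mean 5.34 ± 1.43, SD, n = 6). In each group 1 or more arrays lay near 4 and 1 or more near 8 or above, and all MCAO arrays lay within the sham range. The difference was -0.31 (SE 0.99, adjusted p = 1), and it ranged from -0.83 to 0.37 when each array was left out in turn.

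Myl4 encodes the atrial essential light chain. In sham hearts at 24 h it ran from 4.48 to 5.55 with a median of 4.83, and in MCAO hearts at 24 h from 4.37 to 7.53 with a median of 5.35. Of the 6 MCAO arrays, 3 lay above every sham array and 2 below every one. At 72 h the sham values ran from 4.79 to 7.42 (median 5.15) and the MCAO values from 4.64 to 7.04 (median 5.24), so that 1 MCAO array lay below the sham range and 0 above it. The difference was 0.53 (SE 0.49, adjusted p = 0.477) at 24 h and -0.14 (SE 0.49, adjusted p = 1) at 72 h.

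Mybphl encodes a relative of myosin-binding protein C that is found in atrial muscle. In sham hearts at 24 h it kept to a narrow band, 3.88, 3.94, 3.70, 3.96, 3.96 and 3.91 in replicates 1 to 6. Whether Mybphl was detected at such low values was not tested. In MCAO hearts at 24 h it was 8.18, 4.45, 3.71, 3.98, 3.60 and 3.24, so that 1 array stood far above the other 5. The difference of 0.64 (SE 0.54, adjusted p = 0.427) turned to -0.094 (adjusted p = 0.834) without that array, MCAO replicate 1. At 72 h the sham arrays ran from 3.81 to 5.56 (median 4.10) and the MCAO arrays from 3.73 to 5.16 (median 3.94), with a difference of -0.18 (SE 0.54, adjusted p = 1).

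Sln encodes sarcolipin, a small membrane protein that inhibits the calcium pump of the sarcoplasmic reticulum and that in mice is made mainly in the atria. Sham hearts at 24 h had 4.29, 6.89, 3.62, 4.16, 3.49 and 4.33 (mean 4.46 ± 1.24, SD, n = 6). MCAO hearts at 24 h had 11.07, 7.84, 6.30, 6.09, 6.91 and 5.29 (mean 7.25 ± 2.06, SD, n = 6). All 6 MCAO arrays lay above the sham mean and 3 above the highest sham array, replicate 2, without which the other 5 sham arrays lay below every MCAO array. The difference was 2.79 (SE 1.09), or 6.89-fold, with an unadjusted p = 0.0176 and an adjusted p = 0.0700, and did not pass. It passed without any one of 4 arrays: sham 24 h replicate 2 (3.27, adjusted p = 0.0439), MCAO 24 h replicate 6 (3.18, adjusted p = 0.0440), sham 72 h replicate 6 (adjusted p = 0.0428) and MCAO 72 h replicate 5 (adjusted p = 0.0481), where the 72 h arrays enter only through the shared spread. Without MCAO 24 h replicate 1 it was 2.02 (adjusted p = 0.163).

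The values of Sln at 72 h crossed freely between the groups. Sham arrays had 4.19, 7.47, 4.20, 5.92, 3.57 and 10.12 (mean 5.91 ± 2.51, SD, n = 6) and MCAO arrays 3.66, 6.56, 4.99, 5.64, 9.90 and 5.34 (mean 6.01 ± 2.13, SD, n = 6). One array of each operation lay near 10, and the difference was 0.10 (SE 1.09, adjusted p = 1).

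Kcnj3 encodes the GIRK1 subunit of the potassium channel that acetylcholine opens in the atria. In sham hearts at 24 h it was 7.70, 7.98, 7.85, 7.64, 7.86 and 7.75, and in MCAO hearts 8.59, 7.48, 7.37, 7.61, 7.47 and 6.46. Here 5 of 6 MCAO arrays lay below every sham array, while replicate 1 lay above every one. The difference was -0.30 (SE 0.20, adjusted p = 0.306). Without MCAO replicate 1 it was -0.52 (adjusted p = 0.0168), and without MCAO replicates 5 and 6 together it was -0.03. At 72 h the sham arrays ran from 7.53 to 8.18 (median 7.71) and the MCAO arrays from 7.32 to 7.91 (median 7.62), a difference of -0.14 (SE 0.20, adjusted p = 0.995).

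Bmp10 encodes a secreted ligand of the TGF-beta family that drives growth of the embryonic heart wall and in the adult is made largely in the right atrium. In 20 of the 24 arrays it stayed below 4, and 1 array stood apart: MCAO 72 h replicate 5, at 7.70, against 3.86, 3.67, 3.68, 3.80 and 3.69 in the other arrays of its group. The next were MCAO 24 h replicate 3 at 5.20 and sham 72 h replicate 6 at 4.39. Whether Bmp10 was detected in the arrays below 4 was not tested. The group means were 3.80 ± 0.09, 3.90 ± 0.70, 3.81 ± 0.30 and 4.40 ± 1.62 (SD, n = 6 each) in the order sham and MCAO at 24 h, sham and MCAO at 72 h. The differences were 0.11 (SE 0.48, adjusted p = 0.899) at 24 h and 0.59 (SE 0.48, adjusted p = 0.859) at 72 h, and the latter was -0.067 without MCAO 72 h replicate 5.

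Over the whole set, limma called 0 of the 6 genes at 24 h, against 21.8% of all genes tested, and 0 of 6 at 72 h, against 2.35%. At an unadjusted p under 0.05 there were 2 at 24 h, Myl7 and Sln, and 0 at 72 h. The median difference of the 6 was 0.581 at 24 h and -0.141 at 72 h, beside 0.00818 and 0.00155 over all genes. The change of the MCAO effect from 24 h to 72 h was -2.58 (SE 1.40, adjusted p = 0.346) for Myl7 and -2.68 (SE 1.54, adjusted p = 0.378) for Sln, and limma called 0 of 6 in that comparison, against 1.79% of all genes. A p above the threshold does not show that the groups were alike.

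**Figure D2:**
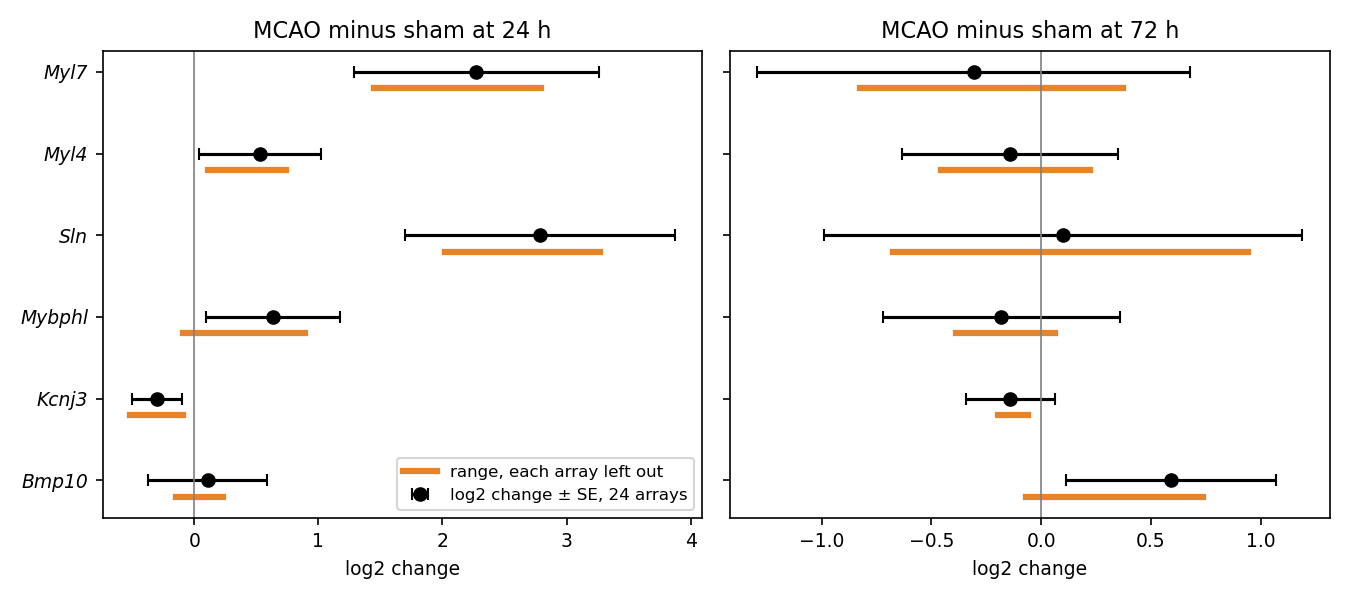
Log2 change of each atrial marker gene after MCAO against sham at 24 h (left) and 72 h (right), as points with SE from the fit of 24 arrays; orange lines span the changes obtained when each array was left out in turn. At 24 h Sln (2.79) and Myl7 (2.27) lie farthest from 0 with SE of 1.09 and 0.99, and at 72 h every orange line but that of Kcnj3 crosses 0.

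Time alone gave 0 calls among the 6 genes as well. From 24 h to 72 h after the sham operation, Myl7 differed by 1.37 (SE 0.99) and Sln by 1.45 (SE 1.09), with an adjusted p = 1.00 for all 6 genes, where 0.0208% of all genes were called. After MCAO the same step was -1.21 for Myl7 (SE 0.99, adjusted p = 0.463) and -1.24 for Sln (SE 1.09, adjusted p = 0.499), where 10.4% of all genes were called. At an unadjusted p under 0.05 there were 0 in both. These comparisons share their groups with those of MCAO against sham. The low sham group at 24 h enters both the Myl7 and Sln differences at 24 h and their steps between the sham groups.

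Centred on their own means and averaged, the 6 genes placed 3 arrays apart from the other 21. MCAO 24 h replicate 1 stood at 2.83, MCAO 72 h replicate 5 at 2.18 and sham 72 h replicate 6 at 2.02 on the log2 scale, and the next, sham 72 h replicate 2, at 0.793. The 3 arrays came from 3 groups, sham included, and the sham group at 24 h held none. Replicate 1 of MCAO 24 h was the highest of all arrays for Myl7, Myl4, Sln, Mybphl and Kcnj3, and sham 72 h replicate 6 the second highest for the same 5. MCAO 72 h replicate 5 was the third for Myl7, Myl4, Sln and Mybphl, the fourth for Kcnj3 and the first for Bmp10. The column of MCAO 24 h replicate 1 is also the only one of the 24 whose sorted values differ from the rest, by at most 0.00191. MCAO 24 h replicates 5 and 6, at 0.976 and 0.971, correlated least with their own group, where the other 22 arrays had r across genes of 0.985 to 0.997, and replicate 6 was the lowest array of all for Myl4, Kcnj3 and Mybphl. The part of these arrays in the results was not tested beyond leaving them out.

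Over the 24 arrays, 4 of the genes varied together. Of the 15 pairs of members, 9 passed an adjusted p of 0.05 by Pearson r and 6 by Spearman rho (permutation tests, 100000 resamples, two-sided, adjusted over the 15 pairs). The 6 that passed by both were the pairs among Myl7, Myl4, Sln and Mybphl, with r from 0.765 to 0.951 and rho from 0.532 to 0.925. Myl7 and Sln were closest, at r = 0.951 and rho = 0.925 (permutation p = 1e-05 for both, the smallest that the resamples can give). Without the 2 arrays farthest from the median of Myl7, r was 0.910, over the 21 arrays without the 3 highest it was 0.891, and within the groups it was 0.899, 0.980, 0.984 and 0.911, in the order sham and MCAO at 24 h, sham and MCAO at 72 h. The pairs of Myl7 with Myl4 and Mybphl had lower values among the sham hearts at 24 h, with r = 0.213 (rho 0.257) for Myl4 and 0.609 (rho 0.143) for Mybphl, where the 3 other groups gave r from 0.875 to 0.977. Over those 21 arrays 4 of the 15 pairs passed by r: Myl7 with Sln, Myl7 with Myl4 (r = 0.635), Myl7 with Mybphl (r = 0.604) and Myl4 with Mybphl (r = 0.821). By rho Myl7 with Mybphl did not pass there (permutation, adjusted p = 0.0666), and Sln with Kcnj3 passed in the negative direction (rho = -0.557, adjusted p = 0.0372). Sln with Mybphl, at r = 0.765 over 24 arrays, was at 0.395 over 21 (permutation, adjusted p = 0.161).

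Kcnj3 varied with 3 of these 4 genes by Pearson r but with 0 by rank. Its r was 0.468 with Myl7 (permutation, adjusted p = 0.044), 0.583 with Myl4 and 0.701 with Mybphl (adjusted p = 0.00581 and 0.00662), while 0 of its 5 pairs passed by rho. Without the 2 arrays farthest from the median of Myl7, its r with Myl7 was 0.0456, and over the 21 arrays it was -0.0671 with a rho of -0.485. With group means taken out, r between Myl7 and Kcnj3 was 0.687. Bmp10 passed with none of the other 5 over the 24 arrays, with r from 0.0399 to 0.381 and rho from -0.225 to 0.125. In MCAO 24 h replicate 1, the highest array for the other 5 genes, Bmp10 was at 3.54, second lowest of 24.

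**Figure D3:**
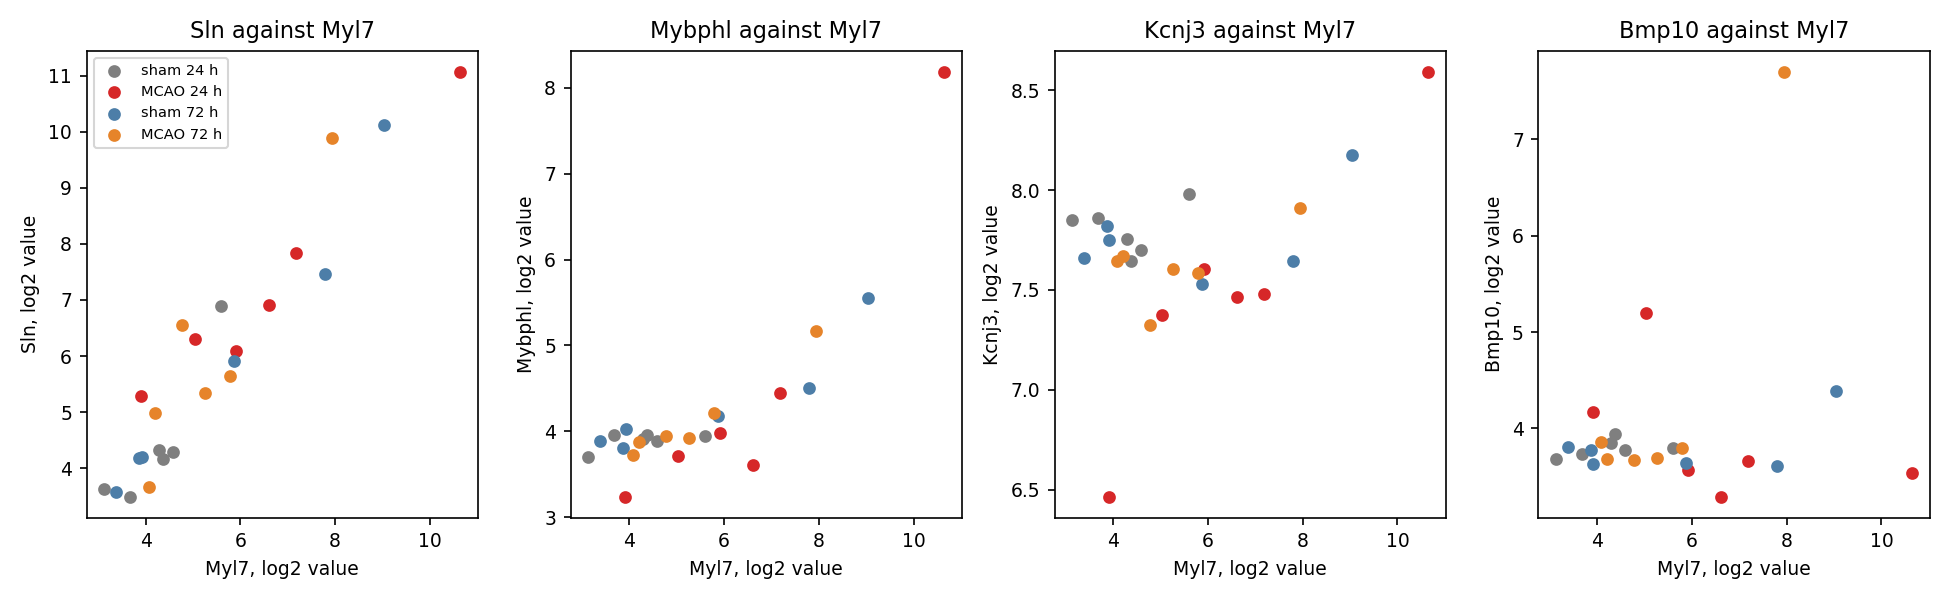
Log2 value of Sln, Mybphl, Kcnj3 and Bmp10 (vertical axes) against that of Myl7 (horizontal axis) in the same 24 arrays, colored by group. Sln lies along a line with Myl7 (r = 0.951), Mybphl stands highest in the 3 arrays with the highest Myl7 and lowest, at 3.24, in an array with Myl7 at 3.91, and Bmp10 stands high in 1 array at a Myl7 value of 7.94.

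Other genes known from the atria gave a second view. A list of 16 held 15 measured genes, among them the natriuretic peptide gene Nppa, the channel subunit gene Kcnj5 (partner of Kcnj3), the transcription factor gene Tbx5 and Pam, which encodes an enzyme abundant in atrial granules. Across arrays, 8 of the 15 passed for their correlation with Myl7 (permutation tests adjusted over 107 genes of 12 lists): Stard10 at r = 0.837, Fgf12 at 0.786, Pam at 0.776, Nppa at 0.764, Dkk3 at 0.733, Kcnj5 at 0.582, Tbx5 at 0.578 and Cacna1d at 0.572. Their rho ran from 0.740 for Stard10 to 0.389 for Tbx5, which alone of the 8 did not pass by rho. The median r of the list was 0.572, beside -0.0128 over all other genes, and 57 of 24010 genes (0.237%) reached an r of 0.6. Over the 21 arrays r was lower for all 8, from 0.614 for Nppa to 0.159 for Tbx5, and 0 of the 107 genes passed. Of the other 7 genes, Kcna5 (r = -0.0950), Cacna1g, Chrm2 and Kcnk3 lay within 0.1 of 0.

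Of the 3 arrays that stood apart in the 6 genes, MCAO 24 h replicate 1 was the most often high in this list. The arrays were picked by the 6 genes alone. The list, however, was chosen with earlier results of these data known, so it is not an independent check. Of the 15 measured genes 12 had their highest array among the 3, against 6.05% of all genes: 9 in MCAO 24 h replicate 1, 2 in MCAO 72 h replicate 5 and 1 in sham 72 h replicate 6. These arrays were among the 3 highest for 12, 9 and 3 of the 15 genes, and sham 72 h replicate 6 stood at rank 18 for Kcna5, 20 for Cacna1g and 21 for Kcnk3. For 2 genes, Fgf12 and Stard10, the 3 arrays were the 3 highest, against 0.0666% of all genes. For Pam, sham 72 h replicate 6 tied at 11.23 with the highest of the other 21 arrays. Stard10, a lipid transfer protein gene, was at 9.67, 8.55 and 8.25 in MCAO 24 h replicate 1, MCAO 72 h replicate 5 and sham 72 h replicate 6, where the median of the other 21 arrays was 7.22. Nppa was at 13.26, 12.91 and 12.64, against a median of 11.94 in the other 21 arrays, of which sham 72 h replicate 2 reached 13.01, above 2 of the 3. Averaged over the 15 genes, the highest array of each group was sham 24 h replicate 6 at 6.74, MCAO 24 h replicate 1 at 7.68, sham 72 h replicate 6 at 7.05 and MCAO 72 h replicate 5 at 7.31.

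The other lists held few genes that passed for their correlation with Myl7. Here 0 of 12 ventricle-enriched genes passed (r from -0.454 for Irx3 to 0.192) and 0 of 11 genes of any cardiomyocyte (from -0.466 for Mybpc3 to 0.167). The average of these 11 was between 12.37 and 12.62 in all 24 arrays, on a scale whose highest value is 13.49 and which leaves genes at its top little room to vary. Of 9 sinoatrial node and conduction genes 0 passed, with Rgs6 the highest at r = 0.428, and Hcn4, the pacemaker channel gene, at 0.304. Over the 21 arrays without the 3 highest, Cpne5 of this list had r = 0.689 (permutation, adjusted p = 0.0856). That was above the highest of the atrial list there, Nppa at 0.614, on Cpne5 values of only 3.58 to 4.65. Of 10 genes of cardiac ganglia and nerves 1 passed, Chat, at r = -0.636. In the lists for large-vessel smooth muscle, epicardium, lung, thymus, fat, skeletal muscle and blood, 0 of 50 genes passed by r. By rho, Irx4 (-0.634), Cpne5 (0.607), Stmn2 (0.590), Sftpa1 (-0.661) and Dntt (-0.601) passed as well. No lung gene exceeded 4.66, no thymus gene 4.71 and no skeletal muscle gene 4.88 in any array, on a scale whose lowest value is 2.78. Whether genes this low were detected was not tested, so their lack of correlation says little. The atrial list gene Cacna1d and the nerve list gene Chat, which both passed, were as low, at 3.70 to 4.14 and 3.66 to 4.14. The highest array lay among the 3 for 2 of 9 conduction genes, 2 of 7 epicardial, 1 of 6 fat, 1 of 8 lung and 1 of 11 genes of any cardiomyocyte, and for 0 genes of the other 6 lists, among them the ventricle-enriched genes.

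**Figure D4:**
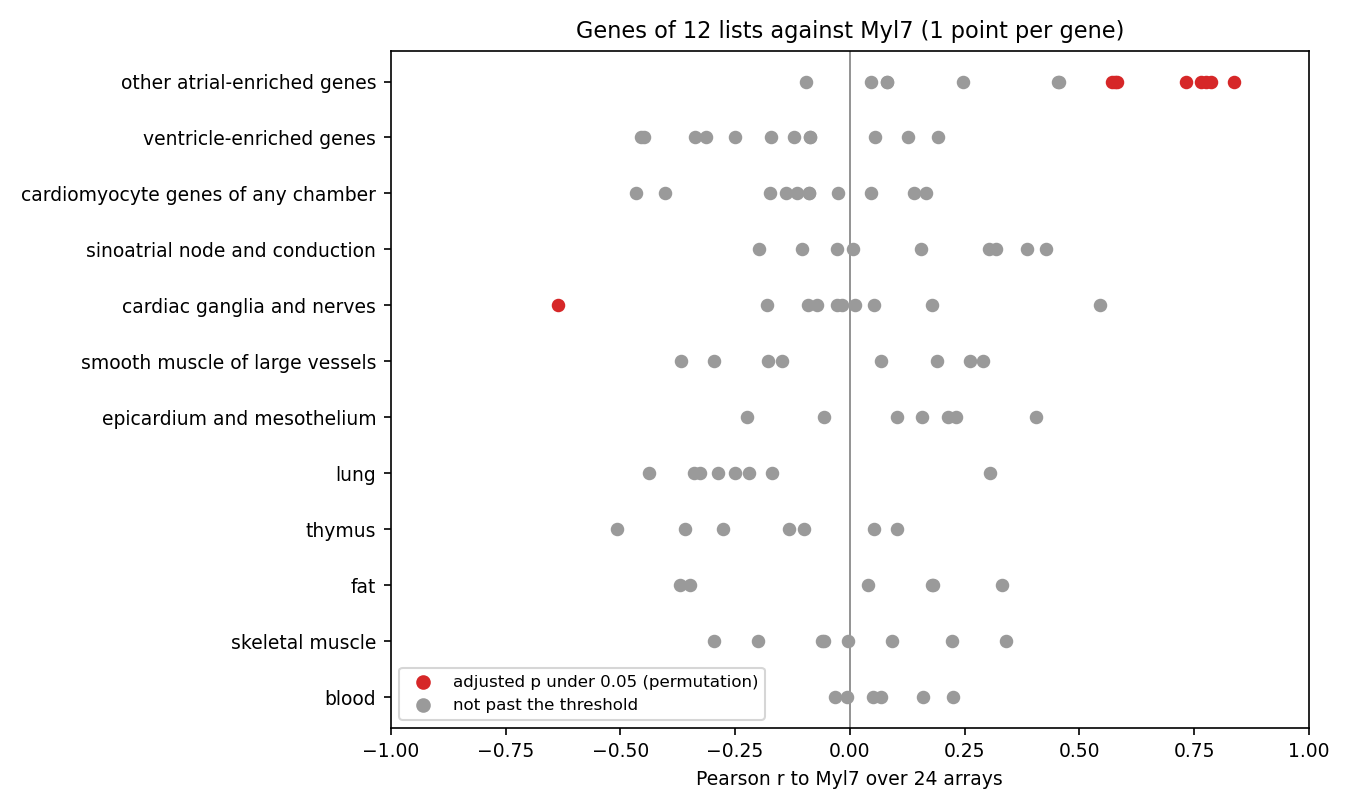
Pearson r to Myl7 over 24 arrays (horizontal axis) for the 107 measured genes of 12 lists (rows), 1 point per gene, red where the permutation p adjusted over the 107 genes is under 0.05. The red points are 8 genes of the atrial list, from 0.572 to 0.837, and Chat at -0.636.

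Tested between the groups, 3 of the 15 other atrial genes rose at 24 h after MCAO and 0 fell, with a median change of 0.284; this share is near the 21.8% of all genes called then. Stard10 rose by 1.15 (SE 0.33, adjusted p = 0.0155), the potassium channel gene Kcna5 by 0.48 (SE 0.14, adjusted p = 0.0156) and Nr2f2, which encodes a transcription factor of atrial identity, by 0.40 (SE 0.12, adjusted p = 0.0207). Nppa did not pass (0.29, SE 0.32, adjusted p = 0.553). At 72 h 1 of the 15 rose, Kcna5, by 0.56 (SE 0.14, adjusted p = 0.0279), where 2.35% of all genes were called. Kcna5 changed at both times, and its r with Myl7 was -0.0950. The call of Stard10 was lost only with the fit of the 2 groups compared (adjusted p = 0.0583), that of Kcna5 at 24 h without MCAO 24 h replicates 5 and 6 (0.0998) and in 2 other settings, and that of Nr2f2 in 4 settings, among them without MCAO 24 h replicate 5 (0.0513) or sham 24 h replicate 5 (0.0560). At 72 h Kcna5 lost the call without any one of 6 arrays, with an adjusted p of up to 0.0820 without sham replicate 2. Beside the same 21.8%, of the ventricle-enriched genes 2 of 12 fell at 24 h, the gap junction gene Gja1 by 1.12 and Irx5 by 0.47, and 0 rose. Of the genes of any cardiomyocyte 3 of 11 fell at 24 h, Myh6 by 0.33, Ryr2 by 0.18 and Ttn by 0.17. Of the 12 ventricle-enriched genes at 72 h, beside 2.35% of all genes, Myh7, the slow myosin heavy chain gene, rose by 3.07 and Kcnip2 fell by 0.66.

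Over the 12 lists 30 of 107 genes (28.0%) were called at 24 h, beside 21.8% of all genes. At 72 h 6 of 107 (5.61%) were called, beside 2.35% of all genes. Among them, Des rose by 0.32 and Smtn fell by 0.37 in the smooth muscle list, and Cidea of the fat list rose by 0.52. The list changes that follow, up to the fat list, are those at 24 h. Of the conduction list 2 of 9 rose, Cpne5 by 0.44 and Tbx3 by 0.33. Stmn2 of the nerve list rose by 0.54 and Th, with a low sham mean of 3.79, fell by 0.16. Of the smooth muscle list Eln rose by 0.61 and Myocd by 0.28, while Acta2 fell by 0.84, Tagln by 0.50 and Smtn by 0.47. Of the lung list 3 of 8 fell and 0 rose, of the thymus list 2 of 7 fell and 0 rose, and of the skeletal muscle list 3 of 8 fell and 0 rose. The genes called in these lists had sham means at 24 h from 3.45 (Myh4) to 4.46 (Tnni2), where the lowest value of the scale is 2.78. Whether genes this low were detected was not tested. In each of the epicardial and blood lists 1 rose and 1 fell, and of the fat list 1 of 6 rose, Cidea. Of the 30 genes called at 24 h over the 12 lists, Gja1, Acta2, Eln, Smtn, Cidea and Tnnt3 kept the call in all alternatives run, and of the 6 at 72 h Myh7 and Smtn did. The part of these markers in the values of the 6 atrial genes was not tested.

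By likeness over the 24 arrays, the genes nearest to the mean of the 6 were Rxfp1, which encodes the relaxin receptor (r = 0.878), Tmem163 (0.862), Stard10 (0.857), Ptgfr, a prostaglandin receptor gene (0.833), and Tbc1d1 (0.831). They were followed by Fgf12, Pam, Mir690, Dkk3, Nppa, Sort1, Sbk3, Aox3, Slit3 and Fras1, down to r = 0.697. Of the 15, Stard10, Fgf12, Pam, Dkk3 and Nppa belong to the atrial list. The highest array was MCAO 24 h replicate 1 for 14 of the 15, and for Dkk3 it was MCAO 72 h replicate 5. The genes were chosen by r to a mean that is itself highest in MCAO 24 h replicate 1, so this count follows in part from the choice. Rxfp1, for example, was at 4.84 in MCAO 24 h replicate 1, 3.90 in MCAO 72 h replicate 5 and 4.01 in sham 72 h replicate 6, against at most 3.68 elsewhere. With Spearman rho in place of r, 4 of the 15 stayed among the nearest 15, and with the 2 farthest arrays left out 7 did. The genes at the other end were Htr3b (r = -0.680), Kcnc1, Def8, Prss53 and Rnf44 (r = -0.619). These correlations describe arrays that share 1 table and normalization, and carry no test.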

How the data were processed

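Total RNA of 24 heart samples was hybridised as biotinylated cRNA to Affymetrix arrays, per the labels' protocols. The deposited table holds log2 values that the authors had normalized so that sorted values are identical in 23 columns, as judged from the values; the log base was inferred, since the highest value would be 11531 on a linear scale. How probes were summarized, with which software and on which build is not given in the sources used here. HOMER appears in the submitters' processing notes with no version or role. No background signal was used, so low values carry no detection limit. Of 24973 identifiers 24015 had 1 symbol, 0 several and 958 none here, which left 24011 genes, the identifier with the highest mean being kept where a symbol had several. No columns were left unused.

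All genes were fitted with limma 3.58.1 in R 4.3.3 (4 group means, 24 arrays, 20 residual degrees of freedom, moderated SE) with Benjamini-Hochberg adjustment over all genes at 0.05; the scripts were tested on simulated data. Adjusted p-values of changes are limma's. No 2 arrays were alike beyond r = 0.996 across genes. Named genes were the 6 members and the 15 highest and 5 lowest genes by r to the mean of the members, without predicted symbols. List genes were drawn from those past the threshold in a comparison of MCAO with sham. They were also drawn from up to 4 genes a list nearest to Myl7 in size of r. Some of these list genes are given only as counts. The members and the 12 lists (113 genes, 107 measured) were chosen with earlier results of these data known. Hamp, the genes nearest to Bmp10, and the fits without MCAO 24 h replicates 5 and 6 or without the 3 highest arrays were added after seeing the data.

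Alternatives, tried one at a time, changed the prior (trended, robust), the normalization (a further quantile step, or centring on the median), the genes (only the brighter ones, or averaged identifiers) and the arrays (weighted, blocked by replicate number, each left out in turn, or only those of the groups compared).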

Additional observations from a re-analysis of the deposited data

Results flagged for a closer look

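Within the groups of 6, 1 array lay far from the other 5 in 6 of 24 sets of values (6 genes in 4 groups), where chance gives about 1 in 20. Mybphl accounted for 3 of them: MCAO 24 h replicate 1 at 8.18, next to 4.45, MCAO 72 h replicate 5 at 5.16, next to 4.22, and sham 24 h replicate 3 at 3.70, the lowest, next to 3.88. Bmp10 accounted for 2: MCAO 72 h replicate 5 at 7.70, next to 3.86, and sham 72 h replicate 6 at 4.39, next to 3.81. For Sln, sham 24 h replicate 2 at 6.89 lay apart from the next array at 4.33. MCAO 72 h replicate 5 appears for both Mybphl and Bmp10.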

How the results depend on the processing

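Of 30 results for the 6 genes (5 comparisons), 937 of 979 alternatives kept direction and side of the threshold, 7 passed it anew and 35 turned direction, 29 of these with an array left out; none of the turned values passed. The count of members called at 24 h, 0 as reported, was 1 with the filter on dim genes (Sln, adjusted p = 0.0476) and 0 to 2 with each array left out; Bmp10 was dropped by that filter. Without the 3 highest arrays, 4 of 15 pairs passed in place of 9, and 0 list genes in place of 9.

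In the fit weighting the arrays, and in that leaving out the 2 arrays MCAO 24 h replicates 5 and 6, the change of the MCAO effect of Kcnj3 was -0.052 and -0.11 (0.16 as reported), and the step from 24 h to 72 h after MCAO was -0.30 and -0.49 for Myl4 (0.038) and -0.082 and -0.14 for Kcnj3 (0.12). With each array left out, the 24 h change ranged from -0.15 to 0.23 for Bmp10 and -0.094 to 0.89 for Mybphl. The 72 h change ranged from -0.83 to 0.37 for Myl7, -0.45 to 0.22 for Myl4, -0.68 to 0.94 for Sln, -0.067 to 0.74 for Bmp10 and -0.39 to 0.064 for Mybphl. The change of the MCAO effect ranged from -0.18 to 0.74 for Bmp10 and -0.048 to 0.38 for Kcnj3. The sham step ranged from -0.11 to 0.051 for Bmp10 and -0.12 to 0.013 for Kcnj3, and the MCAO step from -0.28 to 0.46 for Myl4, -0.16 to 0.75 for Bmp10, -0.082 to 0.34 for Kcnj3 and -0.64 to 0.35 for Mybphl. The cause was not tested.

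Over all genes, 5237 calls at 24 h became 3438 with the dim filter, 3259 with array weights and 2194 with only the groups compared. At 72 h 565 became 1905 with array weights, 1103 without MCAO 24 h replicates 5 and 6 and 1410 with only the groups compared. The change of the MCAO effect went from 430 to 218 with the dim filter and 1079 without those 2 arrays, the sham step from 5 to 27 with array weights, and 1 with the replicate block or only the groups compared, and the MCAO step from 2496 to 1271, 1408 and 848 with the filter, the weights and only the groups compared. Same-numbered arrays showed no strong shared deviation (r -0.0695 to 0.141 over 12 pairs, 1 of which matched best with its own number), so the main fit did not pair them. A weaker link between same-numbered arrays cannot be seen this way. With the replicate block 4938 genes were called at 24 h and 519 at 72 h, Myl7 had an adjusted p = 0.122 and Sln 0.0884 at 24 h, and 0 members were called in any comparison. The number of arrays limits the precision.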

Other observations

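Hamp, which encodes the iron hormone hepcidin, had the second largest SD within groups of all genes (1.99, after Sln at 2.04), and was looked at for that reason after the values were seen. It was at 10.04 in MCAO 72 h replicate 5 and 9.60 in sham 72 h replicate 6, its highest arrays, where Sln was at 9.90 and 10.12. Over the 24 arrays its r was 0.573 with Myl7 and 0.680 with Sln. In MCAO 24 h replicate 1, where Myl7 (10.65) and Sln (11.07) were highest, Hamp was at 3.97, rank 17 of 24. Over the other 23 arrays its r was 0.837 with Myl7 (rho 0.847) and 0.907 with Sln (rho 0.890).

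Bmp10 was likewise low in MCAO 24 h replicate 1 (3.54) and highest in MCAO 72 h replicate 5 (7.70). Its next highest array was MCAO 24 h replicate 3 (5.20), where Hamp was at rank 3 (8.32) while Myl7 was at rank 12 and Mybphl at rank 21 of 24, and sham 72 h replicate 6 was at 4.39. The gene nearest to Bmp10 over the arrays was Cxcl13, a chemokine gene (r = 0.787, rho = 0.351), at 5.73 in MCAO 72 h replicate 5 against a median of 4.34. These are descriptions of single arrays with no test.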
